A study of Nasonia vitripennis with 70 samples.

Results

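Abdomens of triploid females of the parasitoid wasp Nasonia vitripennis were compared with abdomens of diploid females of the same line at generation F14. The comparison rests on 8 of the 70 poly-A RNA libraries of the series, picked by their titles, with 4 triploid libraries (C66, C67, C68 and C69) and 4 diploid libraries (C76, C77, C78 and C79). All 8 belong to the WGDL strain, a neo-polyploid line that goes back to a genome duplication induced with colchicine, and every female was taken 1 day after emergence. Replicates carry library codes alone, and neither the number of animals in a library nor their mothers are given, so p-values measure spread between libraries. Unless another fit is named, that spread is pooled over all 35 abdomen libraries of the series. These include abdomens of haploid and diploid males of generations F5 and F15. Female abdomens of generation F2 (5 triploid and 4 diploid libraries) serve below as the nearest other comparison.

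Nasonia has haplodiploid sex determination: females normally carry a pair of chromosome sets and males a single one, and a triploid female carries one set more. An insect abdomen holds the midgut, which secretes digestive proteases, the fat body, which stores nutrients and carries out detoxification, and in females the ovaries, whose germ cells divide and load eggs with maternal transcripts. Muscle and cuticle line its wall. RNA of a whole abdomen mixes all of these, and in such bulk samples fewer cells of a type and less RNA per cell cannot be told apart. Values are CPM, counts scaled to the effective size of each library, so they are shares of a library and not amounts per cell.

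The 4 triploid libraries were far less alike than the 4 diploid ones. Library totals were 12.3 to 17.8 M counts (M, mega) in triploids, against 17.7 to 25 M counts in diploids. The median over genes of the SD of log2 CPM was 0.627 among triploids and 0.159 among diploids, and 0.563 among triploids without C69. C68 correlated with each diploid library at 0.974 to 0.979 (Pearson r of log2 CPM across genes, which are not independent replicates). C66 reached 0.898 to 0.909, C67 0.921 to 0.931 and C69 0.874 to 0.893, while the diploid libraries correlated with each other at 0.989 to 0.993. No pair of libraries within a group had a chi-square per gene below 4.91, so none was taken for a copy of another.

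Markers showed in what the triploid libraries differed. Tm1, a tropomyosin of muscle thin filaments, was at 1090, 957, 622 and 4663 CPM in the triploid libraries C66, C67, C68 and C69, against 600, 589, 676 and 628 CPM in the diploid libraries C76, C77, C78 and C79. The libraries are given in this order throughout. Zasp66, a muscle Z-disc protein, was at 33.3, 27, 18.0 and 390 CPM in triploids, against 15.4, 14.4, 20.4 and 13.9 CPM in diploids. C69 stood apart from the other 7 libraries in both, while the third muscle marker, Tm2, lay between 79.6 and 97.4 CPM in triploids and between 87.2 and 98.5 CPM in diploids. A germ-line transcript was present in every library, as oskar, a determinant of the germ plasm, was at 423, 580, 596 and 493 CPM in triploids, against 592, 626, 588 and 622 CPM in diploids. The germ-line and patterning genes nanos and Hb varied more. For nanos triploids had 45.6, 32.2, 96 and 19.9 CPM, against 87, 108, 83.8 and 95.3 CPM in diploids. For Hb they had 115, 75, 134 and 39.8 CPM, against 197, 225, 161 and 179 CPM. Markers of head tissue were near 0, with the odorant co-receptor Or1 at no more than 3.59 CPM (in C69) and Lop1, Pdf, white and HisCl1 below 1 CPM in all 8 libraries. Results are given below with and without C69, and C68 is named where it decides a value.

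**Figure D1:**
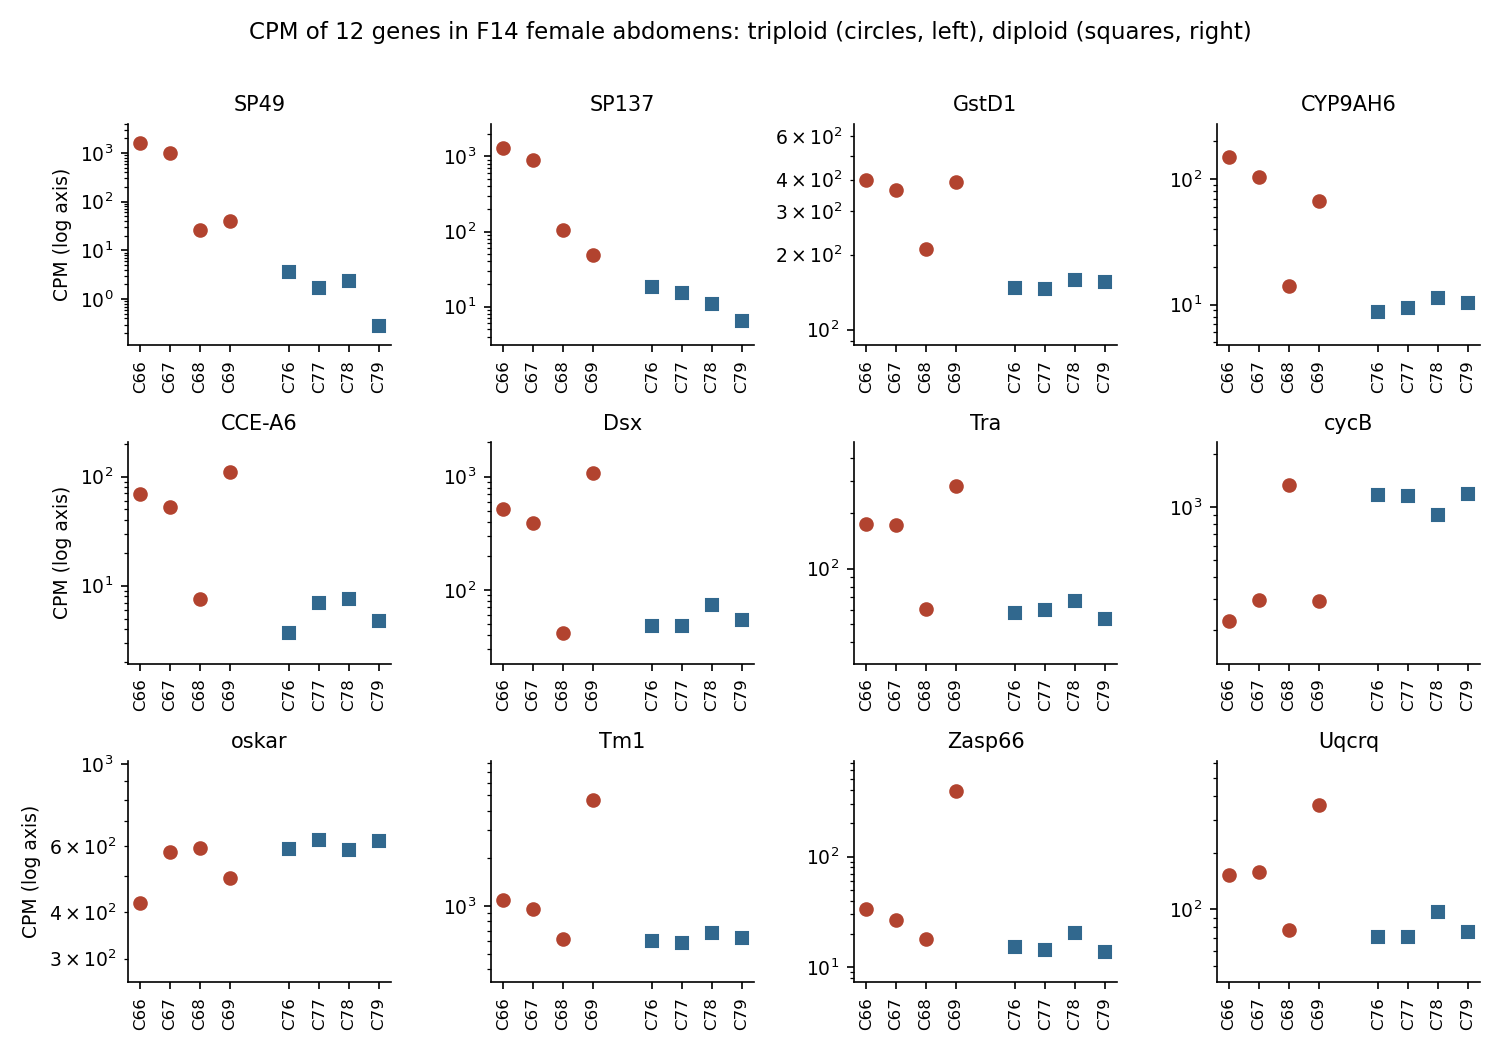
CPM (log axis) of 12 genes in each F14 female abdomen library, with triploid libraries as circles on the left and diploid libraries as squares on the right of each panel. SP49, SP137, GstD1, CYP9AH6 and CCE-A6 were higher in all 4 triploid libraries than in any diploid library, while C68 lay near or among the diploid libraries for Dsx, Tra and cycB, and C69 stood apart for Tm1 and Zasp66.

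By edgeR, many more genes were higher than lower in triploids, and the number depended strongly on which libraries were kept. With all 35 abdomen libraries of the series, of females and males, in 1 edgeR fit, 12308 genes were tested. Of them 19.9% were called at an adjusted p below 0.05. The median SD of log2 CPM in the groups of the fit other than the compared ones was 0.285 (F2 diploid females) to 0.753 (F5 diploid males). In all, 2229 genes (18.1% of those tested) were called higher in triploids and 218 (1.77%) lower, and 2091 and 43 of them by at least 2-fold. All 4 triploid libraries lay above all 4 diploid libraries for 1301 genes (10.6%) and below them for 419 (3.4%). A call and the lack of overlap coincided for 807 higher and 74 lower genes. C68 alone lay above all diploid libraries for 872 of the 2229 genes called higher, and below them for 77 of the 218 called lower.

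Without C69, 991 genes (7.91%) were called higher and 46 (0.367%) lower. With the 8 libraries fitted alone, so that the spread came from them only, 406 genes (4.05%) were called higher and 23 (0.229%) lower, at a lowest adjusted p of 0.0436. With both changes 1 gene was called of 10116 (lower in triploids), where 2501 had an unadjusted p below 0.05. Without C68, by contrast, 3347 genes were called higher and 1658 lower. On the authors' TPM values, which are scaled to a fixed sum in each library, limma called 866 genes higher and 1876 lower, and the median log2 fold change of all genes was -0.11, against 0.17 in the edgeR fit. With DESeq2 2623 genes were called higher and 723 lower, and with the 17 female abdomens alone 2117 and 581. With RLE scaling, which changes nothing else, 2003 genes were called higher and 342 lower. The balance turned on TPM alone, where the test, the unit and the gene filter changed together. Fold changes below can be read against the median of 0.17.

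Of the 10 genes with a symbol that rose most by the naming rule, 8 encode serine proteases, enzymes that in insects act in digestion in the midgut and in proteolytic signalling cascades. SP49 was at 1633, 997, 26.6 and 40.6 CPM in triploids, against 3.52, 1.68, 2.35 and 0.280 CPM in diploids. The groups did not overlap, and C66 and C67 were far above C68 and C69 (log2 fold change 8.43, SE 1.46, adjusted p = 0.000571). SP137 was at 1308, 886, 104 and 48.6 CPM in triploids and 18.5, 15, 10.8 and 6.43 CPM in diploids, again with no overlap (log2 5.53, SE 1.28, adjusted p = 0.00379). SP7 was at 164, 147, 11.6 and 2.73 CPM in triploids and 0.714, 0.597, 0.425 and 0.240 CPM in diploids (log2 fold change 7.36, SE 1.44, adjusted p = 0.00112). All 3 calls held without C69 (adjusted p = 0.000529 for SP49, 0.00402 for SP137 and 0.000905 for SP7). They also held with the 8 libraries alone (adjusted p = 0.0436 for each, the lowest value of that edgeR fit, shared by 242 genes). With both changes at once all 3 calls ended (adjusted p = 0.0562 for each).

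In SP43, SP9, SP102 and SP50 the triploid libraries stood in the order seen for SP49, with C66 highest and C68 lowest. SP43 was at 530, 352, 15.1 and 31.7 CPM in triploids, against 3.76, 6.42, 10.7 and 2.20 CPM in diploids (log2 fold change 5.33, SE 1.17, adjusted p = 0.0027). SP9 was at 73.3, 58.3, 2.97 and 11.7 CPM in triploids, against 1.05, 1.49, 0.686 and 0.439 CPM in diploids (log2 fold change 5.31, SE 1.17, adjusted p = 0.00278). SP102 was at 703, 559, 24.9 and 81.6 CPM in triploids, against 14.8, 13.4, 13.3 and 9.75 CPM in diploids (log2 fold change 4.74, SE 1.35, adjusted p = 0.0139). For each of them the lowest triploid library stood above the highest diploid library, and C66 and C67 were the highest 2 libraries. SP50 was at 380, 224, 23.6 and 28.8 CPM in triploids, against 6.52, 6.98, 8.66 and 2.52 CPM in diploids (log2 fold change 4.73, SE 1.49, adjusted p = 0.0248). Its call ended without C66 (adjusted p = 0.076) and without each of C76, C77, C78 and C79 (adjusted p = 0.0503 to 0.0795), but not without C69 (adjusted p = 0.0372).

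Some members were almost absent from diploid abdomens. SP4 had 937 counts in the triploid libraries together and 1 count in the diploid libraries together. Scaled to library size this is a ratio of 1354, with a counting interval of 242 to 53516 (95%, exact binomial, counting error only). The gene hmm716344, for which the reference gives no function, had 455 counts in triploids and 2 in diploids, a ratio of 329 with a counting interval of 90.5 to 2722. Most counts of both came from C66 and C67: SP4 was at 27.9 and 18.5 CPM there, against 0.202 CPM in C68 and 3.04 CPM in C69.

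Of 43 serine proteases 40 were tested, and 24 were higher, 0 lower and 16 uncalled, with a median log2 fold change of 2.83. All genes together had a median of 0.17 and 18.1% called higher. Of the 24, C68 lay above all diploid libraries for 19, and 19 were called higher with no overlap between the groups. Among all 2229 genes called higher these counts were 872 and 807. Without C69 19 remained called, with the 8 libraries alone 12, beside 7.91% and 4.05% of all genes. In all 3 fits 10 were called, among them SP49, SP7, SP137, SP132 and SP120. With C69 left out and the other 7 libraries fitted alone, no member was called. On TPM, 21 members were higher and 2 lower, beside 866 and 1876 of all 12126 genes tested. The summed TPM of the list was 15280, 10590, 2343 and 1385 in triploids, against 1166, 1096, 1023 and 906.7 in diploids, so all 4 triploid libraries lay above every diploid library. Of 6 serine protease homologs tested, which lack the catalytic residues of the enzymes, 1 was called higher: SPH126 (67.4, 60.6, 15 and 10.4 CPM in triploids, against 3.997, 2.42, 0.229 and 2.48 CPM in diploids, with a log2 fold change of 4.08, SE 1.06, adjusted p = 0.00793).

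Several protease genes lie close together in the gene order of assembly Nvit_psr_1.1, with successive members of a group at most 5 genes apart. SP4, SP7 and SP9 form a group with SP10, SP11 and SP17, and the first 3 were called higher. SP10 was uncalled (adjusted p = 0.177), and SP11 and SP17 were not tested. SP123, SP128, SP120 and SPH126 form another, and all 4 were called higher, as were the neighbours SP96 and SP97. No member was called in the groups of SP16, SP19 and SP22, of SP37 and SP38, and of SP72 and SP73. In the group of SP47, SP48, SP49 and SP52 the members did not move together: SP49 and SP52 were called higher, whereas SP48 was at 0.435, 0.146, 0 and 0.156 CPM in triploids, against 1.05, 1.64, 0.556 and 0.999 CPM in diploids (log2 fold change -2.49, SE 1.02, adjusted p = 0.0808). Reads of such close paralogues may be shared among them in quantification, so a value of a single member carries that uncertainty.

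**Figure D2:**
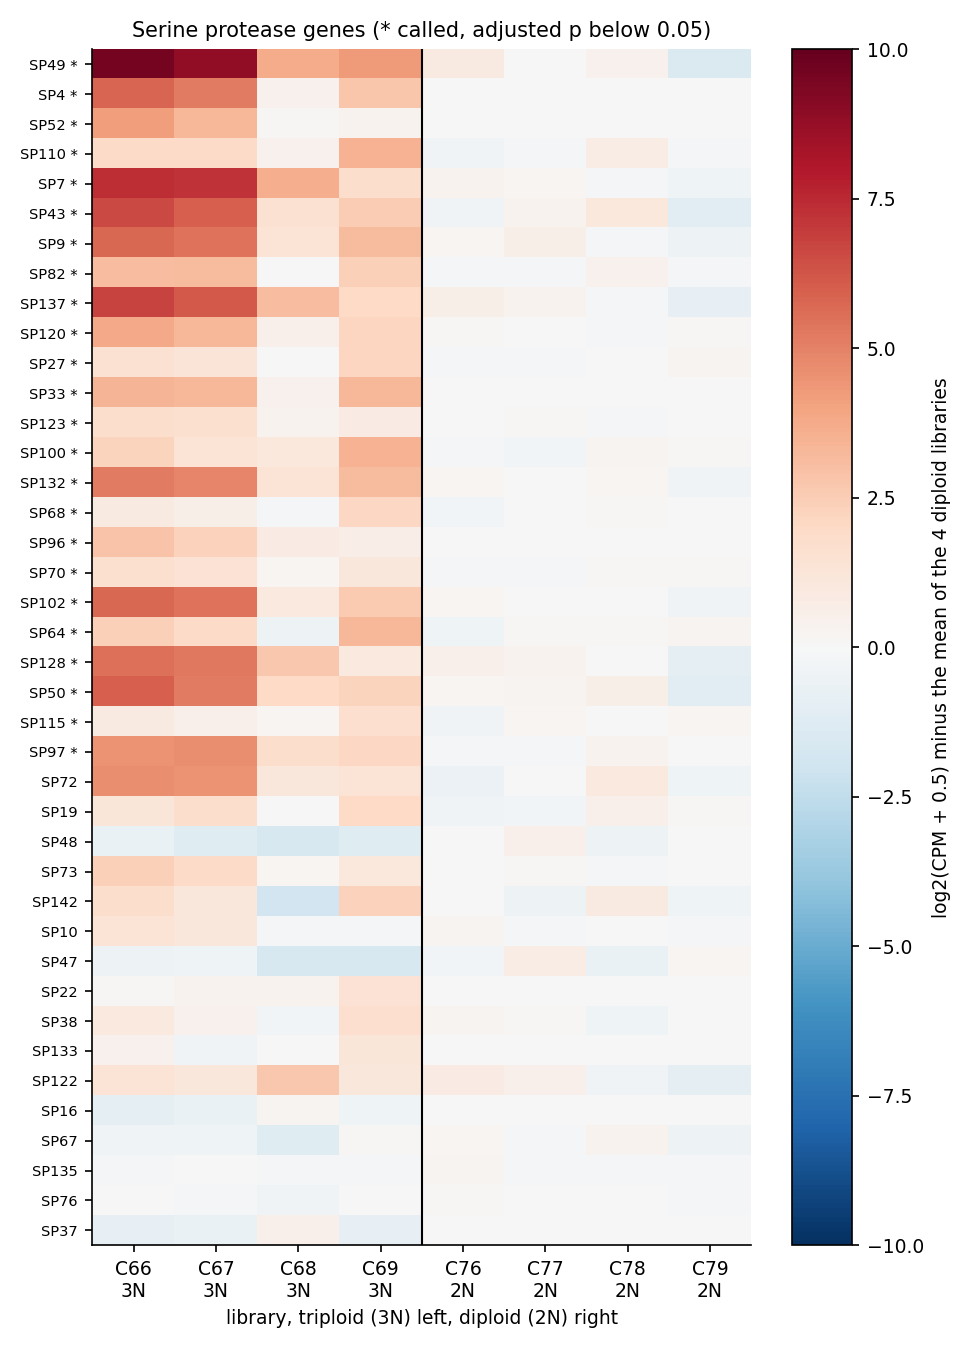
Level of the 40 tested serine proteases in each library as log2(CPM + 0.5) minus the mean of the 4 diploid libraries, with triploid libraries on the left of the line and genes ordered by adjusted p (* called). C66 and C67 are the darkest columns for most called members, and C68 and C69 are weaker but raised for most of them.

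Several enzymes that modify foreign compounds were also higher in triploids. Glutathione S-transferases, for instance, attach glutathione to toxins and to products of oxidation. GstS5 was at 206, 186, 53.8 and 79.8 CPM in triploids, against 31, 27.9, 36.4 and 28.5 CPM in diploids (log2 fold change 2.08, SE 0.35, adjusted p = 0.000482). GstD1 was at 399, 363, 212 and 390 CPM in triploids, against 146, 146, 158 and 155 CPM in diploids (log2 fold change 1.17, SE 0.30, adjusted p = 0.00724). Neither gene had an overlap between triploids and diploids, and C68 was the lowest triploid library in both. GstS6, a near neighbour of GstS5, was at 20.9, 20.4, 9.38 and 18.1 CPM in triploids, against 6.19, 6.57, 6.70 and 6.47 CPM in diploids, with an adjusted p of 0.00936 (log2 1.41, SE 0.38). GstS2 was at 185, 134, 9.73 and 51.4 CPM in triploids, against 7.52, 7.83, 12.7 and 5.79 CPM in diploids, so that C68 lay among the diploid libraries (log2 3.49, SE 0.74, adjusted p = 0.002).

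Of the 16 glutathione S-transferases 5 were higher, 0 lower and 11 uncalled, beside 18.1% of all genes called higher. Their median log2 fold change was 0.34, close to that of all genes. All 5, the named 4 and GstD5, were also called without C69, and the named 4 with the 8 libraries alone.

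Cytochrome P450 enzymes, which oxidise foreign compounds, hormones and cuticular lipids, had 13 of 43 members higher, 0 lower and 30 uncalled, with a median of 1.21, beside 18.1% of all genes called higher. CYP9AH6 was at 151, 103, 14 and 66.9 CPM in triploids, against 8.76, 9.36, 11.2 and 10.3 CPM in diploids (log2 fold change 3.08, SE 0.52, adjusted p = 0.000488). CYP6AS30 was at 403, 260, 26.8 and 159 CPM in triploids, against 11.9, 12.8, 16.2 and 12 CPM in diploids (log2 fold change 4.002, SE 0.86, adjusted p = 0.00234). In both the groups were separate and C68 was the triploid library closest to the diploids. CYP9P3 was higher in every triploid library too (log2 2.79, SE 0.59, adjusted p = 0.00192), and CYP9P5, a near neighbour of it, overlapped the diploid libraries through C68 (log2 2.17, SE 0.46, adjusted p = 0.00219). Without C69, 8 members were called higher and 1, CYP4BW5, lower, with a median of 0.40, beside 7.91% and 0.367% of all genes. With the 8 libraries alone 4 of 36 were called higher, beside 4.05% of all genes. On TPM 7 were higher and 2 lower, beside 866 and 1876 of all 12126 genes tested.

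Carboxylesterases hydrolyse esters, among them lipids, pheromones and insecticides. Of 13 members 7 were higher, 0 lower and 6 uncalled (median 2.51), beside 18.1% of all genes called higher. CCE-A6 was at 68.7, 52.7, 7.61 and 109 CPM in triploids, against 3.66, 6.98, 7.48 and 4.79 CPM in diploids (log2 fold change 3.37, SE 0.68, adjusted p = 0.00148). The groups were separate by a narrow margin, C68 at 7.61 CPM standing next to the diploid library C78 at 7.48 CPM. CCE-A8 was at 35.4, 23.1, 3.38 and 18.5 CPM in triploids, against 0.809, 1.68, 1.44 and 0.839 CPM in diploids (log2 fold change 4.06, SE 0.96, adjusted p = 0.0044). CCE-E7 was at 18.5, 7.10, 2.52 and 0.468 CPM in triploids and at no more than 0.336 CPM in diploids (log2 fold change 5.27, SE 1.49, adjusted p = 0.0135). Without C69, 4 members were called higher (median 1.64), and with the 8 libraries alone 2 of 11, beside 7.91% and 4.05% of all genes. C68 lay below all diploid libraries for 8 of the 13 members, a share that was not counted over all genes.

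Of 3 sex determination genes Dsx and Tra were higher in triploids, through 3 of the 4 triploid libraries. Dsx (doublesex), the transcription factor that directs sexual differentiation, was at 522, 387, 41.9 and 1073 CPM in triploids, against 47.9, 48.4, 73.9 and 54 CPM in diploids. C68 lay below every diploid library, and C66, C67 and C69 far above them (log2 3.17, SE 0.56, adjusted p = 0.000571). Tra (transformer), the splicing regulator whose activity gives the female form of Dsx, was at 174, 172, 60.6 and 279 CPM in triploids, against 57.5, 59.8, 66.5 and 53.2 CPM in diploids, with C68 among the diploids (log2 1.53, SE 0.32, adjusted p = 0.00182). Both calls held without C69 (adjusted p = 0.003 and 0.0167) and ended with the 8 libraries alone (adjusted p = 0.0556 and 0.0584). Fru (fruitless), a transcription factor of sexual behaviour in Drosophila, was at 73.6, 45.2, 74.5 and 54.3 CPM in triploids, against 77.5, 86, 64.8 and 69.7 CPM in diploids (log2 fold change -0.27, SE 0.25, adjusted p = 0.45). Gene counts do not separate the splice forms of these genes.

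Cuticle and chitin genes, whose products build and turn over the exoskeleton, had 11 of 38 tested members higher, 0 lower and 27 uncalled (median 2.80, and 2.75 with genes that had no diploid count set to the ratio that 3 counts would give), beside 18.1% of all genes called higher. The chitinase gene Cht5 was at 52.1, 46, 5.85 and 140 CPM in triploids, against 4.90, 1.90, 5.49 and 2.72 CPM in diploids (log2 fold change 4.02, SE 0.87, adjusted p = 0.00245). CPR35, a structural cuticle protein, was at 13.9, 13.2, 0.958 and 7.87 CPM in triploids, against 0.999, 1.08, 1.96 and 1.08 CPM in diploids (log2 fold change 2.80, SE 0.59, adjusted p = 0.00187), with C68 lowest of all 8 libraries. CPR34 and CPR37 were set by C69: CPR34 was at 6.96, 6.86, 2.77 and 167 CPM in triploids, against 2.71, 2.69, 4.77 and 3.20 CPM in diploids, and its call ended without C69 (log2 0.72, adjusted p = 0.424). Without C69, 3 members were called higher (median 1.43), and with the 8 libraries alone 1 of 17, beside 7.91% and 4.05% of all genes. On TPM 2 were called higher, beside 866 of all 12126 genes tested. Without C68, 23 were called higher and 1 lower, beside 3347 and 1658 of all 12567 genes tested.

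Smaller lists of the body wall, storage and chemical senses gave few calls. In the yellow family of pigmentation genes 3 of 9 members were higher and 1 lower, beside 18.1% and 1.77% of all genes. Y-e3 was at 7.23, 4.38, 2.42 and 9.43 CPM in triploids, against 1.24, 0.821, 1.90 and 0.919 CPM in diploids (log2 fold change 2.25, SE 0.45, adjusted p = 0.00133), and Y-g2b, at no more than 0.435 CPM in triploids and 1.19 to 4.08 CPM in diploids, was lower (log2 -2.98, SE 0.96, adjusted p = 0.0289, and 0.107 without C69). Hex83, one of the hexamerin storage proteins, was the only one of 4 storage genes called (log2 2.44, SE 0.63, adjusted p = 0.0073, and 0.0349 without C69). Odorant receptors had 7 of 51 tested members higher and gustatory receptors 4 of 12, beside 18.1% of all genes, most at around 1 CPM or less. The share of odorant receptors lay below that of all genes. Gr2 was at 10.1, 7.44, 3.23 and 3.59 CPM in triploids, against 0.952, 1.38, 1.41 and 2.20 CPM in diploids (log2 fold change 2.03, SE 0.61, adjusted p = 0.02), and Or65 had 23 counts in triploids and none in diploids, at least 11.1-fold higher if 3 counts over the diploid group are taken as the floor. Without C69 3 odorant and 2 gustatory receptors were called higher, beside 7.91% of all genes. With the 8 libraries alone only 6 odorant and 2 gustatory receptors were tested, and none was called.

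**Figure D3:**
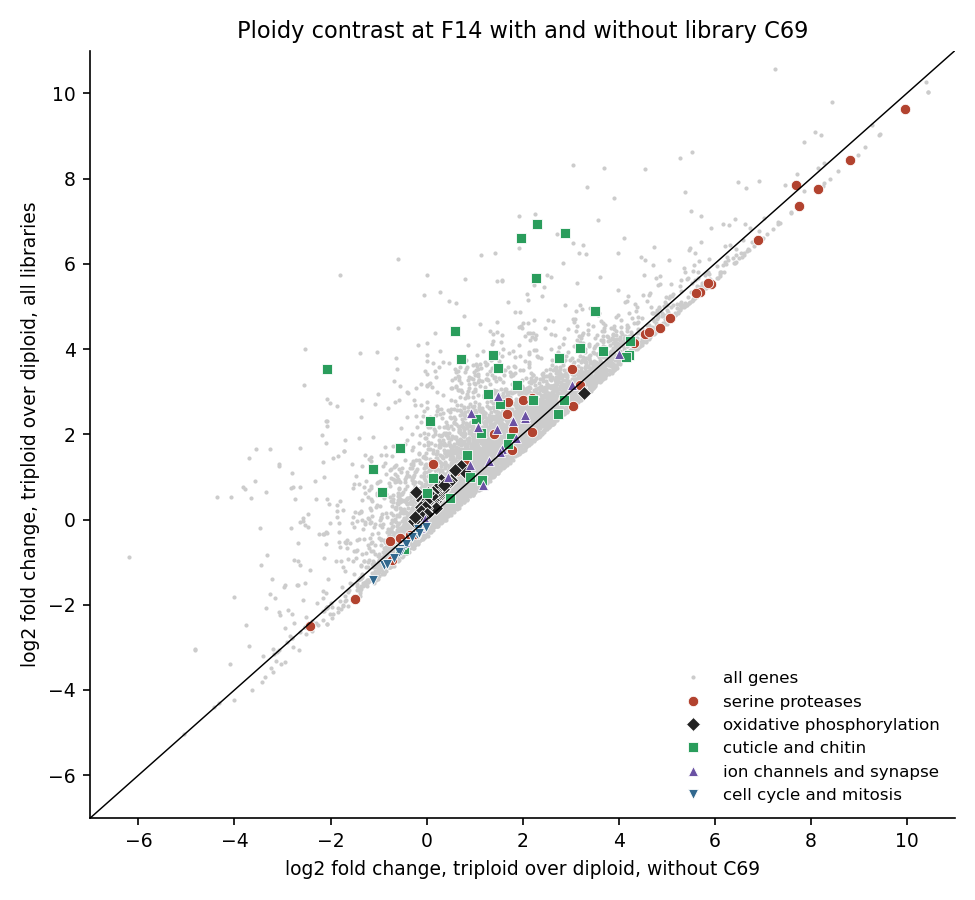
Log2 fold change of triploid over diploid abdomens with all libraries (vertical axis) and without C69 (horizontal axis), 1 point per gene, with 5 gene lists coloured and the line of equal values drawn. Serine proteases lie along the line, while many cuticle genes and the oxidative phosphorylation genes lie above it.

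Calls among muscle and mitochondrial genes ended when C69 was left out, and their fold changes were much smaller. Tm1 (log2 1.56, SE 0.46, adjusted p = 0.0164) and Zasp66 (log2 2.87, SE 0.67, adjusted p = 0.00404) were called with all libraries and not without C69 (log2 0.51, adjusted p = 0.417, and 0.70, adjusted p = 0.347). The 63 genes of oxidative phosphorylation, the mitochondrial respiratory chain and ATP synthase, had 6 members higher and 57 uncalled (median 0.58), a smaller share than the 18.1% called higher among all genes. Without C69 no member was called, at a median of 0.16, and none with the 8 libraries alone. With all libraries 22 had an unadjusted p below 0.05, a share that was not counted over all genes. DESeq2 called 6 higher and limma on TPM none, beside 2623 of 12308 and 866 of 12126 among all genes. The 17 female abdomens alone gave 16 calls and the fit without C68 gave 22, all higher. Among all genes 2117 of 10708 and 3347 of 12567 were called higher there. Uqcrq, a subunit of complex III, was at 151, 158, 77.7 and 358 CPM in triploids, against 70.8, 71, 96.2 and 76 CPM in diploids (log2 fold change 1.25, SE 0.33, adjusted p = 0.00868, and 0.133 without C69). The median of the list against the diploid mean was 0.19 in C66, 0.27 in C67, 0.04 in C68 and 1.36 in C69, on the log2 scale.

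Ion channel and synapse genes of neurons had 6 of 19 members higher, 0 lower and 13 uncalled (median 1.90), beside 18.1% called higher among all genes. None was called without C69 or with the 8 libraries alone, but the median without C69 was still 1.46. Members differed in this: nAChRa2, nAChRa12 and LCCH3, subunits of neurotransmitter-gated channels, had log2 fold changes of 3.87, 3.17 and 2.38 with C69 and 4.01, 3.03 and 2.06 without it (adjusted p = 0.0883, 0.113 and 0.14). pHCl, a pH-gated chloride channel, was at 16.4, 10.5, 3.13 and 76.8 CPM in triploids, against 3.24, 2.76, 4.44 and 3.75 CPM in diploids (log2 fold change 2.90, SE 0.73, adjusted p = 0.00656, and 0.149 without C69). Syt1, the calcium sensor of synaptic vesicles, was at 54.4, 27, 7.11 and 98.5 CPM in triploids, against 7.80, 10.3, 13.7 and 11 CPM in diploids (log2 fold change 2.12, SE 0.68, adjusted p = 0.0281, and 0.193 without C69). None of 7 immunity genes was called by edgeR with all abdomens (2 at an unadjusted p below 0.05). DESeq2 and the 17 female abdomens alone called 1 higher each, and the fit without C68 2. The defensin gene Def1-2, an antibacterial peptide, was at 2.34, 2.24, 5.80 and 205 CPM in triploids, against 6.33, 8.69, 8.43 and 4.31 CPM in diploids (log2 fold change 2.95, SE 1.33, adjusted p = 0.11). Its direction turned without C69 (log2 -1.005, adjusted p = 0.647). Whether the muscle transcripts of C69 have a part in these values was not tested.

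Most genes of dividing cells were uncalled, but C66, C67 and C69 lay below the diploid libraries for several of them. Cdk2, a kinase of the entry into S phase, was at 12.1, 10.5, 15.5 and 3.12 CPM in triploids, against 29.9, 32.3, 21.1 and 26.3 CPM in diploids, with no overlap (log2 -1.41, SE 0.39, adjusted p = 0.0115). Its call ended without C69 (adjusted p = 0.057) and with the 8 libraries alone (adjusted p = 0.0791). It was the only one of 15 cell cycle genes called (5 lower at an unadjusted p below 0.05), and the fold changes of all 15 were below 0 (median -0.69). The mitotic cyclin gene cycB, chosen after its values were seen, was at 226, 298, 1331 and 292 CPM in triploids, against 1171, 1151, 897 and 1185 CPM in diploids (log2 fold change -1.04, SE 0.70, adjusted p = 0.284). C66, C67 and C69 lay far below every diploid library and C68 above every one of them. Without C68, 11 of the 15 genes were called lower (median -1.28), beside 1658 of all 12567 genes tested. On TPM 10 were called lower with all libraries, beside 1876 of all 12126 genes tested. For Smc2, a condensin subunit of mitotic chromosomes, triploids had 27, 33, 132 and 34.7 CPM, against 124, 117, 106 and 130 CPM in diploids (log2 fold change -1.07, SE 0.41, adjusted p = 0.0601, and 0.000234 without C68). C68 was again the highest library of the 8.

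Genes of DNA replication and repair had the same split. Rad54l, a motor protein of homologous recombination, was at 26.4, 29.3, 51.4 and 17.8 CPM in triploids, against 51.2, 48.9, 44.5 and 52.6 CPM in diploids (log2 fold change -0.66, SE 0.23, adjusted p = 0.0378, and 0.198 without C69). It was the only one of 16 members called (3 lower at an unadjusted p below 0.05). Without C68, 10 were lower, and on TPM 10 with all libraries, beside 1658 of 12567 and 1876 of 12126 among all genes. Germ-line and patterning genes had 1 of 8 members called higher, beside 18.1% of all genes. This was hairy, a transcriptional repressor of segmentation (log2 1.09, SE 0.39, adjusted p = 0.049, and 0.109 without C69). The other 7 were uncalled with fold changes below 0, and the list median was -0.63. DESeq2 and the fit without C68 called 1 member lower each, beside 723 and 1658 of all genes. The 17 female abdomens alone and limma on TPM called 3 lower each, beside 581 and 1876 of all genes. The translational repressor nanos was at 45.6, 32.2, 96 and 19.9 CPM in triploids, against 87, 108, 83.8 and 95.3 CPM in diploids (log2 fold change -0.95, SE 0.46, adjusted p = 0.136). Hb (hunchback), a gap gene with a maternal transcript, was at 115, 75, 134 and 39.8 CPM in triploids, against 197, 225, 161 and 179 CPM in diploids, without overlap but uncalled (log2 -1.07, SE 0.70, adjusted p = 0.27). The levels of oskar differed less than this (log2 -0.22, SE 0.24, adjusted p = 0.529). Th1, the other lower gene that met the naming rule and for which no function is given here, was at 22, 24.4, 29.1 and 15 CPM in triploids, against 36.4, 33.1, 33.8 and 34.8 CPM in diploids (log2 fold change -0.61, SE 0.20, adjusted p = 0.0349, and 0.18 without C69).

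**Figure D4:**
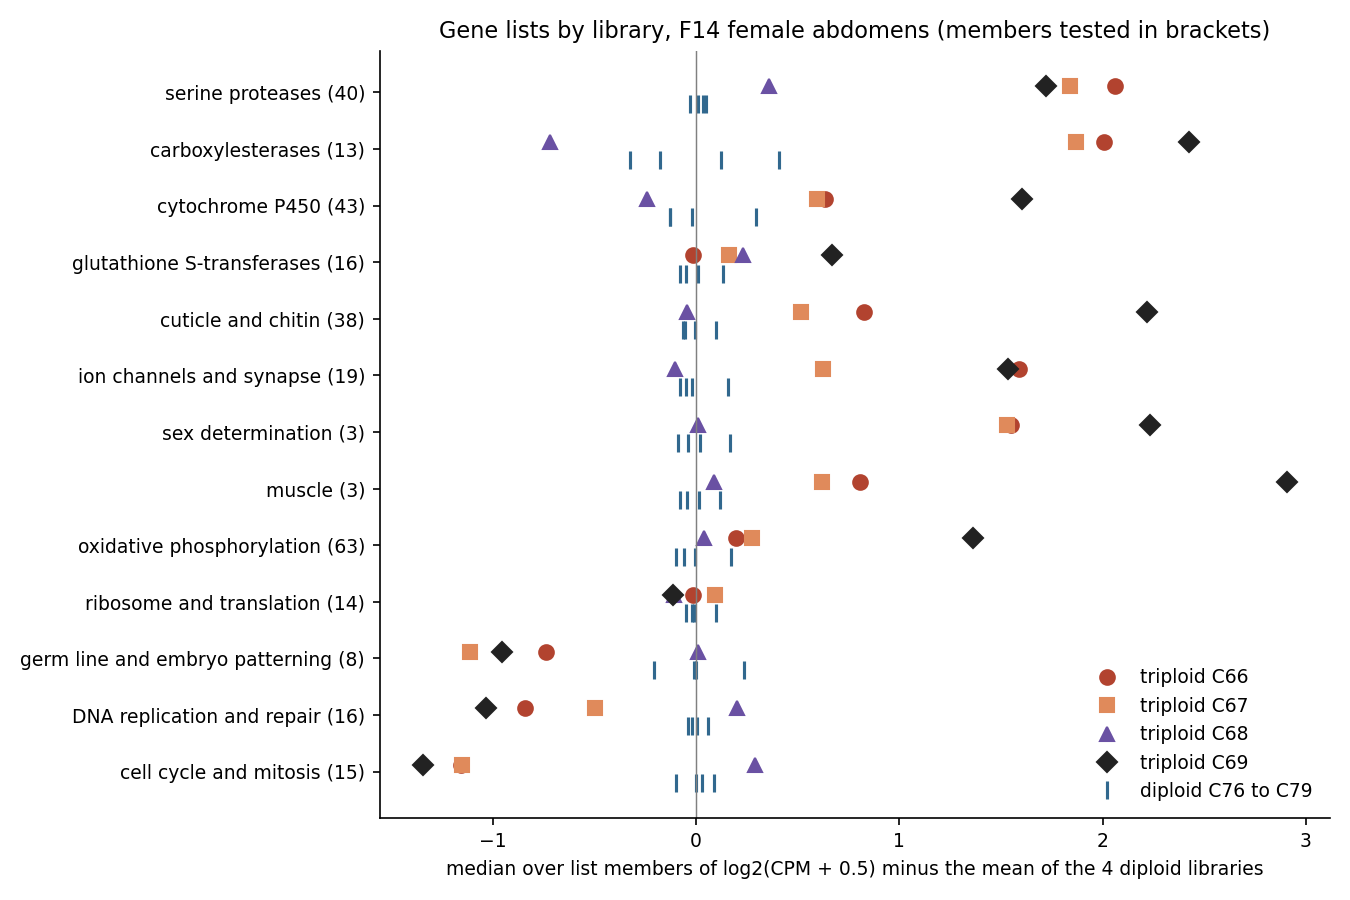
Median over the tested members of 13 gene lists of log2(CPM + 0.5) minus the mean of the diploid libraries, with 1 symbol per triploid library and ticks for the 4 diploid libraries. C66, C67 and C69 lie right of the diploid ticks for proteases and esterases and left of them for cell cycle genes, while C68 lies near 0 for most lists. For serine proteases C68 lies at 0.36, and for carboxylesterases at -0.72, left of every diploid tick.

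Housekeeping lists gave few calls. Of 14 ribosome and translation genes none was called by edgeR with all abdomens and TMM scaling (median -0.03, with 1 higher and 1 lower at an unadjusted p below 0.05). Other settings called some: DESeq2 2 lower, limma on TPM 3 lower, RLE scaling and no count filter 1 lower each, and the 17 female abdomens alone and the fit without C68 1 higher each. Eif2a, a translation initiation factor, lay below all diploid libraries in every triploid library (116, 111, 89.5 and 73.2 CPM, against 129, 129, 117 and 126 CPM, log2 -0.36, SE 0.15, adjusted p = 0.0835). None of 11 dynein and dynactin genes (median -0.05, none at an unadjusted p below 0.05) and 6 splicing genes (median -0.09, 1 lower at an unadjusted p below 0.05 and by DESeq2) was called in the same fit. For splicing genes RLE scaling, no count filter and the 17 female abdomens alone called 1 lower each, and the fit without C68 and limma on TPM 2 each. The 7 hormone signalling genes (median 0.89) and the 7 royal jelly protein-like genes (median 0.70) were uncalled as well, with 2 and 1 higher at an unadjusted p below 0.05, and DESeq2 called none of the first list and 1 of the second. Without C68, 2 and 1 were called higher. The median of the royal jelly list turned to -0.46 without C69, where Mrjpl2 was called lower (log2 -1.80, adjusted p = 0.0347), and to -0.14 on TPM.

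The difference between triploids and diploids at F14 was set against the same difference at F2 in 1 contrast of the fit. It was more positive at F14 for 3055 genes (24.8%) and more negative for 989 (8.04%), and without C69 for 2307 and 380. Without C68 the counts were 3658 and 2169, and with the 17 female abdomens alone 3072 and 1909. Limma on TPM turned the balance, with 1458 more positive and 2038 more negative. At F2, 64 genes had been called higher in triploids and 858 lower. Of the 2229 genes called higher at F14, 583 were called lower at F2 and 4 higher, and 2002 had a more positive effect at F14. Of the 218 called lower at F14, 1 was called higher at F2 and none lower by edgeR. None of these 5 genes has a name or function in the reference used here. The labels give no batch or date, so generation and any batch that goes with it cannot be told apart. The F2 diploid libraries were not alike. In C27, C28, C29 and C30 cycB was at 604, 676, 532 and 1310 CPM, against 984 to 1449 CPM in F2 triploids. Summed TPM of carboxylesterases was 189, 259, 200.5 and 51.9 in these, against 24.4 to 74.5. For sex determination genes it was 214.5, 303, 241 and 125, against 96.7 to 164. C30 lay within the F2 triploid range in all 3, and C27, C28 and C29 outside it.

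Serine proteases had 26 of 40 members with a more positive effect at F14 and none with a more negative one. SP49 averaged 0.0959 ± 0.104 CPM (SD, n = 5) in the triploid and 1.76 ± 0.923 CPM (SD, n = 4) in the diploid F2 libraries, and the F14 effect was larger by 12.5 on the log2 scale (SE 1.93, adjusted p = 4.13e-05). For SP7 it was larger by 9.001 (SE 1.85, adjusted p = 0.000582) and for SP137 by 6.80 (SE 1.59, adjusted p = 0.00186). Among P450 genes 26 of 43 were more positive at F14, and among carboxylesterases 8 of 13, both with none more negative. Glutathione S-transferases had 4 of 16 more positive and 1 more negative, close to the 24.8% and 8.04% of all genes.

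Dsx averaged 52.1 ± 18.9 CPM in the triploid and 168 ± 84.9 CPM in the diploid F2 libraries, lower in triploids (log2 -1.69, adjusted p = 0.0332), and its effect at F14 exceeded that at F2 by 4.87 (SE 0.74, adjusted p = 3.38e-05). Tra, at 44.4 ± 8.82 CPM in F2 triploids and 73.5 ± 22.7 CPM in F2 diploids, was uncalled there (adjusted p = 0.128), and its effects differed by 2.26 (SE 0.43, adjusted p = 0.000311). Cdk2 was at 16.8 ± 3.64 CPM in F2 triploids and 15 ± 1.54 CPM in F2 diploids, and its effect at F14 was more negative by 1.57 (difference -1.57, SE 0.53, adjusted p = 0.0241). Of the 15 cell cycle genes 6 were more negative at F14 and none more positive. By its list median, C68 is the triploid library that lay closest to the diploids for these genes. It still lay above all diploid libraries for 13 of the 15 and below all of them for 2. These shares were not counted over all genes. The list median against the diploid mean was 0.29 in C68, and -1.16, -1.15 and -1.34 in C66, C67 and C69. The F14 effects thus average unlike triploid libraries, and the F2 effects average C30 with the unlike C27, C28 and C29.

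**Figure D5:**
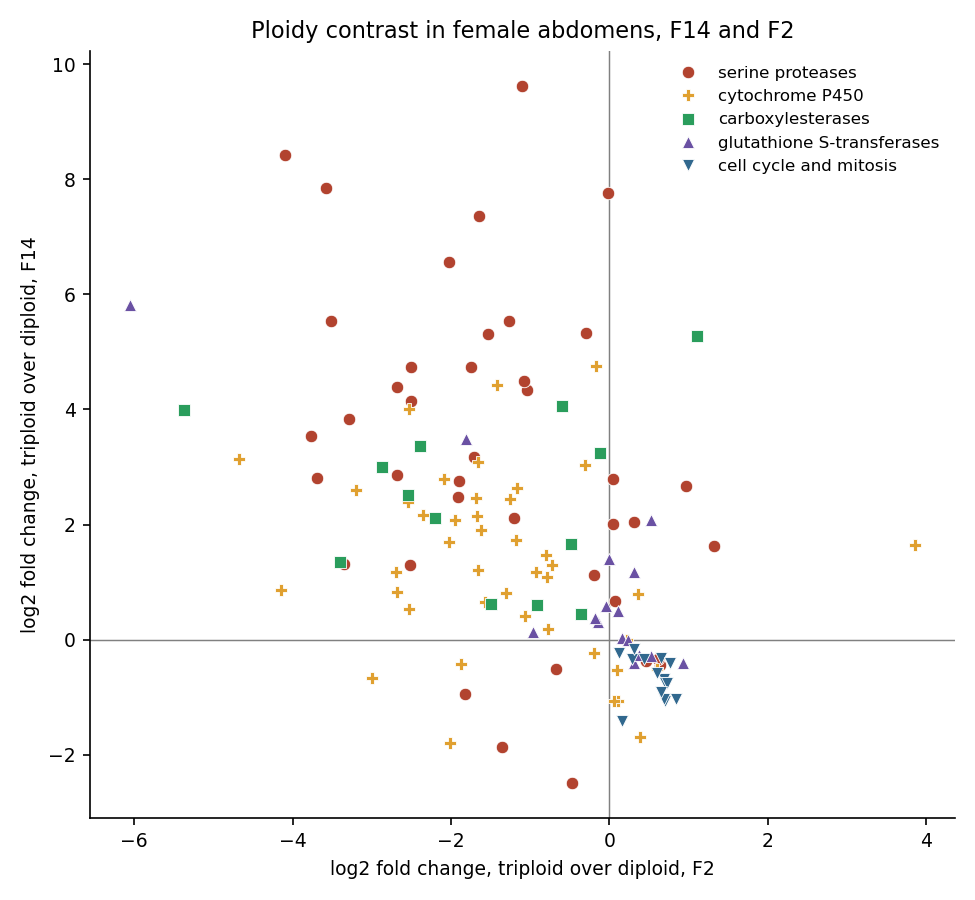
Log2 fold change of triploid over diploid abdomens at F14 (vertical axis) and at F2 (horizontal axis) for the tested members of 5 gene lists, 1 symbol per gene. Most proteases, P450 genes and carboxylesterases lie in the upper left quadrant, higher at F14 and lower at F2, and the cell cycle genes lie in the lower right.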

How the data were processed

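Per the submitters' processing notes, reads were handled with STAR 2.7.11a and RSEM 1.3.1; for the genome build, nothing is given in the sources used here. The authors deposited gene-level expected counts and TPM for 70 libraries. RSEM divides reads among similar paralogues, so values of close gene copies are uncertain. Expected counts were rounded to whole numbers and fitted with the quasi-likelihood test of edgeR 4.0.16 (R 4.3.3, TMM scaling, filterByExpr) over all 35 abdomen libraries in 8 groups, with Benjamini-Hochberg adjustment over all genes tested and calls at an adjusted p under 0.05. The 8 groups were set by sex, ploidy and generation, and haploid and diploid males of F5 and F15 are among them. Every adjusted p in the report is two-sided and comes from this fit unless another is named. Library totals were 12.3 to 25 M counts (M, mega) in the 8 compared libraries. DESeq2 1.42.0 on the same counts and limma 3.58.1 on log2(TPM + 1) of the deposited TPM were alternatives, beside RLE scaling, no count filter, fewer libraries and each library left out. The test was also run on simulated counts with known changes.

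The gene lists, defined by symbol, and the comparison were chosen with earlier results of these data known. Genes were named by 3 rules: up to 10 per direction with the largest fold change among called genes with a symbol, a group mean of 5 CPM or more, no overlap between the groups and a call without C69 (this last condition was dropped for lower genes, as fewer than 5 met it, leaving Cdk2 and Th1); up to 4 members of each list with the lowest adjusted p; and sex determination and muscle genes. CYP4BW5, GstD5, cycB, Cdk1, fzy, nAChRa2, nAChRa12, neighbours of named genes and the other groups of close proteases were added after their values were seen. All gene symbols matched the RefSeq table of assembly Nvit_psr_1.1, from which only names and gene order were used.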

Additional observations from a re-analysis of the deposited data

Results flagged for a closer look

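Of 226 sets of 4 values examined for a value far from the other 3 (Dixon's criterion), 31 held one, or 13.7%. The criterion is set for about 1 in 20 by chance, but the share cannot be read against that. The muscle genes were included because of C69, and cycB, Cdk1 and fzy after their values were seen. List sums also repeat genes, and genes vary together. Triploid library C69 was the high value for Tm1 (4663 CPM), Zasp66 (390.2 CPM), CPR34 (167.1 CPM), CPR37 (41.31 CPM), Mrjpl5 (42.16 CPM), Mrjpl4 (9.275 CPM), Gr49 (2.026 CPM), Cox5a (502.9 CPM), Def1-1 (53.47 CPM), Def1-2 (205 CPM) and ITR (10.91 CPM). The same library stood apart in the summed TPM of oxidative phosphorylation (64290), immunity (2020) and muscle genes (5449). No other triploid library exceeded 33820, 446 or 1132 TPM in these sums.

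Triploid library C68 was the high value for genes of dividing and germ-line cells: cycB (1331 CPM), Cdk1 (339.1 CPM), fzy (357.6 CPM), Smc2 (132.4 CPM), Smc1a (181.1 CPM), Smc3 (130.4 CPM), WRNexo (48.34 CPM), Mus201 (99.86 CPM) and Cad (55.6 CPM). In diploids, C78 was high for SP110 (4.117 CPM), CPR35 (1.961 CPM), Cox5a (179.8 CPM) and GRD (6.993 CPM) and low for Snw1 (116.7 CPM) and cycB (897 CPM). C79 was high for SPH90 (36.23 CPM) and C76 low for Snrpc (35.79 CPM). What sets C68 and C69 apart was not tested.

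The effect of ploidy at F14 differed from that at F2 by the contrast of the edgeR fit for many named genes, and the 15 given here are those named for the size of their fold change or as sex determination and muscle genes. It was more positive at F14 by 10.73 for SP4, 12.53 for SP49, 13.88 for hmm716344, 9.001 for SP7, 6.80 for SP137, 5.62 for SP43, 6.85 for SP9, 7.24 for SP102 and 6.48 for SP50, on the log2 scale. It was also more positive for Dsx (4.87), Tra (2.26), Zasp66 (4.61) and Tm1 (2.10), and more negative for Cdk2 (-1.57) and Th1 (-0.72). For genes with almost no counts in a group, such as SP4 and hmm716344, the fitted size depends on the prior count and is no bound.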

How the results depend on the processing

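The number of calls depended most on the libraries kept, and on TPM, where test, unit and filter changed together, the balance of directions turned. With the 8 libraries alone 429 genes were called (406 higher and 23 lower), and with C69 also left out 1 (0 higher and 1 lower). Limma on TPM called 866 higher and 1876 lower. Lower calls numbered 342 with RLE scaling, 723 with DESeq2 and 581 with the 17 female abdomens. Leaving out each library in turn gave 1037 to 5005 calls, 991 to 3347 higher and 46 to 1658 lower, with the fewest without C69 and the most without C68. The F14 minus F2 contrast gave 2687 to 5827 calls in the same way. Of the 58 named genes called, 55 were called with RLE scaling, 53 without the count filter, 58 with DESeq2, 35 of 57 on TPM, 19 of 46 with the 8 libraries alone, 35 without C69 and 58 without C68. With the 7 libraries other than C69 alone 0 of 47 were called. Directions turned for uncalled genes only. On TPM Mrjpl5 was at -0.14 and Tctex1 at -0.0386 (log2), and with the 7 libraries other than C69 alone Mrjpl5 was at -1.26, Mrjpl4 at -0.52, Def1-2 at -1.07 and ITR at -0.63. Leaving out each library in turn, Def1-2 ranged between -1.005 and 3.35, ITR between -0.57 and 1.297, Mrjpl4 between -0.46 and 1.18, Mrjpl5 between -1.19 and 1.78 and Snrpf between -0.0876 and 0.0365, and the cause was not tested. No paired analysis was possible because library codes are unique and the groups share no replicate number. Genes with a few counts in a library, such as most chemoreceptors, are limited by depth.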
